A study of Mus musculus with 28 samples.

Results

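The GIMAP genes (GTPases of immunity-associated proteins) were followed through 28 mouse arrays: Gimap1, Gimap3, Gimap4, Gimap5, Gimap6, Gimap7, Gimap8 and Gimap9, 8 of the 18194 genes with a probe set tied to 1 gene. The genes were listed by name, and the probe set standing for each was chosen by its mean over all 28 arrays, the brightest being taken. All 8 members lay over the detection level, 4.27 log2 units, in at least 2 arrays and so were among the 9871 genes tested; 2 of their 224 values lay under it. The family held 11 such probe sets in all, and the brightest sets had means from 6.60 (Gimap5) to 12.98 (Gimap4), which choose the probe set and say nothing of one gene's level against another's.

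The cells were splenic CD4 and CD8 T cells of mice, each obtained by depleting the other cells. They were activated for 2 days with plate-bound anti-CD3 (3 µg per ml) and dissolved anti-CD28 (5 µg per ml), which all groups share, the control included. Drug was then present for 1 day: romidepsin (2, 10 and 30 nM in separate groups) or vorinostat (0.5, 2 and 10 µM). The stimulated control had no drug, and no vehicle is named for it. Each of the 14 groups had 2 arrays, replicate 1 and replicate 2, and the labels give no strain, age or genotype and do not say that replicates were separate mice, so p-values measure the spread between these samples. The sex-linked genes given below place replicates 1 and 2 in animals of different sex. No group here holds resting T cells.

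GIMAP proteins are small GTPases of lymphocytes that sit on intracellular membranes and assemble through their GTP-binding domains, which are related to those of septins. Several members are needed for the survival of resting T cells, and loss of Gimap5 in mice and rats leaves few peripheral T cells. Their genes lie side by side in mammalian genomes. Romidepsin, a cyclic peptide, and vorinostat, a hydroxamic acid, both block histone deacetylases, which take acetyl groups off histone tails.

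In RefSeq (build GRCm38.p6) the 8 genes fill chr6:48647186-48770851, 123.666 kb, in the order Gimap8, Gimap9, Gimap4, Gimap6, Gimap7, Gimap1, Gimap5 and Gimap3. The gaps between neighbours ran from 2.402 to 15.246 kb, and no other gene with a probe set lies inside. Gimap6 and Gimap3 are read from the minus strand and the other 6 from the plus strand. The table of promoters matched all 8 genes with 9 promoters, as Gimap8 has 2 starts. Its starts for Gimap8 and Gimap9 lie downstream of the RefSeq gene starts, so these windows reach into the genes. The 2 Gimap8 windows overlap each other. The 250 bases before the start are shown for 4 members, because they mark the range of the responses described below: Gimap3 had the largest falls, Gimap6 ran closest to the mean of the other members, Gimap9 moved least at the highest doses, and Gimap5 is the member best known for T cell survival. Each is written 5′ to 3′ on the strand of its gene, and capitals mark matches to the motifs searched.
Gimap3, chr6:48770852-48771101, minus strand: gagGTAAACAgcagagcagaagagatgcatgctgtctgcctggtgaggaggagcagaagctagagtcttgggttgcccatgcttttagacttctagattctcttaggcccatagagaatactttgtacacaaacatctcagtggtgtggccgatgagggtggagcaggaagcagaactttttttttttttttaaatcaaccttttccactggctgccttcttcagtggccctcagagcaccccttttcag
Gimap6, chr6:48708245-48708494, minus strand: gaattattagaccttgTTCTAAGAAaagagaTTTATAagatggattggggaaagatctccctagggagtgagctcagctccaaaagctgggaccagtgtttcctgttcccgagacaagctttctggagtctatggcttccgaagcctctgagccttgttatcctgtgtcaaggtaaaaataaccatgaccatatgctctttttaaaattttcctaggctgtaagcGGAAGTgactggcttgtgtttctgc
Gimap9, chr6:48675885-48676134, plus strand: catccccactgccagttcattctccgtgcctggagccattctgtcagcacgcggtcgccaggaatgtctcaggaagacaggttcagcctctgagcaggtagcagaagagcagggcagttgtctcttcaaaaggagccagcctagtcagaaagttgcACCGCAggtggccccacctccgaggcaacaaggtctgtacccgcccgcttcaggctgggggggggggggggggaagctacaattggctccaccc
Gimap5, chr6:48745947-48746196, plus strand: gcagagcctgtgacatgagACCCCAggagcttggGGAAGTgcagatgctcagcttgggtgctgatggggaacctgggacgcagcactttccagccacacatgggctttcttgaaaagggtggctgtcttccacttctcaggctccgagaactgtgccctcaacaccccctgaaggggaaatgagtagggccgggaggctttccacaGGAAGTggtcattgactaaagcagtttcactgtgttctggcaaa

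Both strands of each 250-base window were searched for short motifs of factors known from T cells. TGNGGT, a loose RUNX pattern that leaves base 3 open, was found in 6 of the 9 windows, those of 6 genes, against 40.1% of the 32851 promoters in the table. It is in the Gimap9 window as ACCGCA and in the Gimap5 window as ACCCCA, both on the other strand. The Gimap5 match and the Gimap8 match, TGGGGT, have G at base 3, where the RUNX core has T or C. The share of all promoters counts such matches too. The ETS motif GGAAGT was in 2 windows (19.7% of all), Gimap6 with 1 match and Gimap5 with 2. The forkhead motif GTAAACA was in the Gimap3 window only (3.17% of all), and the STAT motif TTCNNNGAA in 2 windows, Gimap6 and the downstream window of Gimap8 (7.02% of all). The letters TATAAA of a TATA box were in the Gimap6 window on the other strand, from -219 (12.4% of all). Neither this strand nor this position is that of a TATA box. No window held the TCF7/LEF1 motif CTTTGAT (3.21% of all), the RBPJ motif TGGGAA (21.6%), the AP-1 motif TGANTCA (6.75%) or the KLF motif CCACACCC (3.20%). No matches in these windows shared a base. The windows held 1 to 8 CpG dinucleotides, 1 in Gimap3 and 8 in Gimap9, with a median of 3 against 6 over all promoters, and their GC content was 43.6% to 61.2% with a median of 47.6% against 52.4%. A match to such letters is a description and shows no binding.

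Replicates 1 and 2 differed as sets, which bears on every test below. The Y-linked Eif2s3y lay between 11.36 and 12.02 in all replicate 1 arrays and at the lowest value in all replicate 2 arrays, and Xist the other way round, at 11.69 to 12.72 in replicate 2. By these genes replicate 1 was male and replicate 2 female in every group. Sex and any other difference between the sets therefore cannot be told apart. Each array had 8446 to 9321 genes above the detection level. A limma fit with 14 group means carries the difference between the sets in its error, and a fit with the replicate number as a block does not. For the members both are given where their calls differ. A gene is called when its Benjamini-Hochberg adjusted p over the 9871 genes is under 0.05. Counts of genes that rose or fell are counts of called genes. The sign ± gives the standard error from the fit without the block. Arrays have no read depth, and their number limits the precision: the 95% interval of a difference extended 0.97 log2 units either way without the block and 0.35 with it, in the median over tested genes.

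At the highest doses the GIMAP means lay below their controls in both cell types, except that Gimap9 in CD8 cells stayed near its control, and Gimap3 had the largest difference in all 4 comparisons. Gimap3, which encodes a membrane-anchored member known to bind BCL2 family proteins, lay at 9.77 and 10.29 log2 units (replicates 1 and 2) in the control CD4 cells. It lay at 4.37 and 5.85 with romidepsin at 30 nM and at 4.52 and 5.93 with vorinostat at 10 µM. Neither drug group overlapped the control, and in each the replicate 1 array was the lower. Gimap3 fell by 4.92 ± 1.12 log2 units with romidepsin, or 30.3-fold (limma adjusted p = 0.00481; within replicates -5.41 and -4.43). The vorinostat difference was -4.80 ± 1.12, or 27.9-fold lower (adjusted p = 0.00647; within replicates -5.25 and -4.35).

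In CD8 cells Gimap3 lay at 8.66 and 9.70 in the control, at 4.36 and 7.44 with romidepsin at 30 nM and at 3.54 and 5.52 with vorinostat at 10 µM. The last group held the 1 Gimap3 value under the detection level, and both drug groups lay wholly under the control. The difference was -4.65 ± 1.12 with vorinostat (limma adjusted p = 0.00728) and -3.28 ± 1.12 with romidepsin, which missed the threshold (adjusted p = 0.0738) and passed it with the replicate block (adjusted p = 6.07e-05). The changes within replicates were -4.31 and -2.26 for romidepsin. At middle doses Gimap3 lay at 5.78 and 8.50 in CD4 cells with romidepsin at 10 nM and at 8.31 and 9.45 with vorinostat at 2 µM. In CD8 cells the matching values were 7.07 and 9.17 and 7.02 and 8.76. At 2 nM and 0.5 µM the values were between 8.20 and 10.10 in both cell types, beside controls from 8.66 to 10.29.

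**Figure D1:**
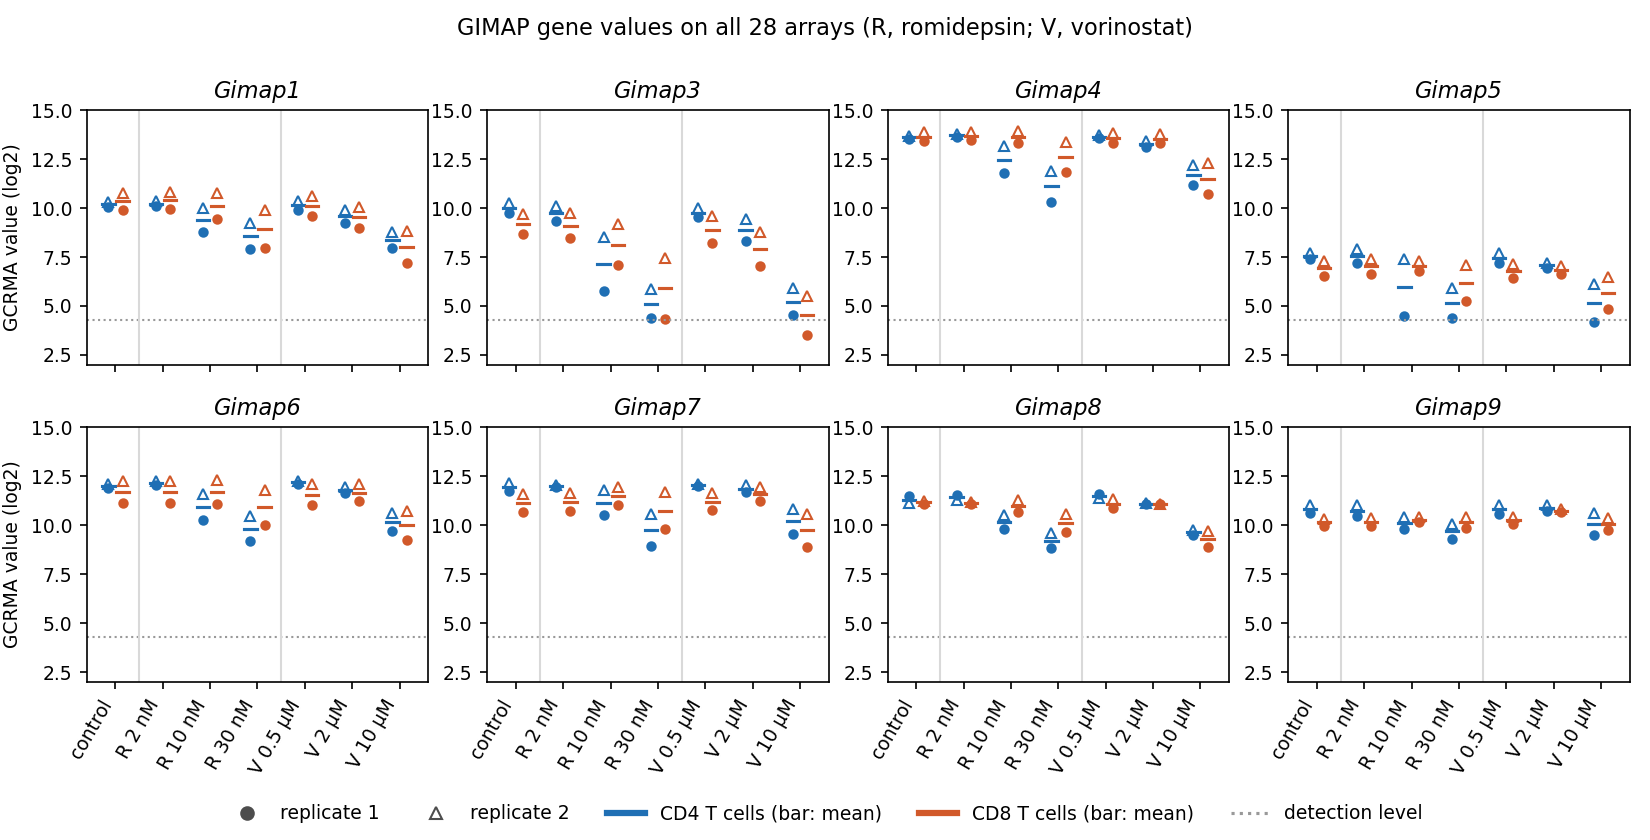
GCRMA values (log2) of the 8 GIMAP genes on the 28 arrays, 1 panel a gene, by drug and dose; circles are replicate 1, triangles replicate 2, bars group means, blue CD4 and orange CD8 cells, and the dotted line is the detection level of 4.27. Gimap3 drops from 10.03 to 5.11 in CD4 cells with romidepsin at 30 nM (means), while Gimap9 moves little in CD8 cells at the highest doses. The triangle lies over the circle in most groups.

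Gimap8, a long member with several GTPase domains in a row, had the smallest standard error of the family and, without the block, the smallest adjusted p of the members at the highest doses. It lay at 11.49 and 11.14 in control CD4 cells, 8.83 and 9.59 with romidepsin at 30 nM and 9.49 and 9.78 with vorinostat at 10 µM, with no overlap. In CD8 cells it lay at 11.10 and 11.25, 9.64 and 10.58 and 8.91 and 9.71 in the same order, again without overlap. The differences were -2.11 ± 0.36 (limma adjusted p = 0.000479) and -1.68 ± 0.36 (adjusted p = 0.00334) in CD4 cells. In CD8 cells they were -1.86 ± 0.36 with vorinostat (limma adjusted p = 0.00152) and -1.07 ± 0.36 with romidepsin (adjusted p = 0.0675, and 0.00356 with the replicate block).

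Gimap4, which is known to speed the death of T cells that have entered apoptosis, lay at 13.55 and 13.69 in control CD4 cells, 10.31 and 11.92 with romidepsin at 30 nM and 11.17 and 12.20 with vorinostat at 10 µM. Both drug groups lay under the control, and Gimap4 fell by 2.51 ± 0.62 (5.68-fold; limma adjusted p = 0.00872) with romidepsin; the vorinostat difference was -1.94 ± 0.62 (adjusted p = 0.041). In CD8 cells it lay at 13.41 and 13.87 in the control, 11.82 and 13.37 with romidepsin and 10.70 and 12.29 with vorinostat at these doses. The vorinostat difference there was -2.14 ± 0.62 (limma adjusted p = 0.0221); the romidepsin difference was -1.04 ± 0.62 (adjusted p = 0.374, and 0.0325 with the block).

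Gimap5, the member whose loss shortens T cell life, lay at 7.42 and 7.72 in control CD4 cells, 4.37 and 5.91 with romidepsin at 30 nM and 4.18 and 6.12 with vorinostat at 10 µM; the 4.18 of replicate 1 was under the detection level. These groups did not overlap the control, but the replicates of each differed by over 1 log2 unit, and the differences of -2.43 ± 0.87 and -2.42 ± 0.87 passed only with the block (limma adjusted p = 0.0584 and 0.066 without it, 0.000773 and 0.00088 with it). In CD8 cells Gimap5 lay at 6.53 and 7.30 in the control, 5.24 and 7.11 with romidepsin and 4.85 and 6.46 with vorinostat. The romidepsin arrays overlapped the control arrays and the vorinostat arrays did not, and the differences were -0.74 ± 0.87 and -1.27 ± 0.87 (limma adjusted p = 0.76 and 0.367; 0.242 and 0.0422 with the block). RefSeq also lists the name Gimap5 among the synonyms of Gimap3, and whether the probe sets of such near relatives share signal was not checked.

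Gimap1, needed for the development and upkeep of T and B cells, lay at 10.08 and 10.30 in control CD4 cells, 7.90 and 9.24 with romidepsin at 30 nM and 7.94 and 8.80 with vorinostat at 10 µM. It lay at 9.93 and 10.76, 7.95 and 9.92 and 7.21 and 8.83 in the matching CD8 groups. Each drug group lay under its control. The difference passed without the block in CD8 cells with vorinostat, -2.33 ± 0.73 (limma adjusted p = 0.0332). It was -1.62 ± 0.73 and -1.82 ± 0.73 in CD4 cells and -1.41 ± 0.73 in CD8 cells with romidepsin (limma adjusted p = 0.14, 0.101 and 0.28; 0.000164, 6.77e-05 and 0.000798 with the block).

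Gimap6, an autophagy-linked member that binds GABARAPL2, lay at 11.92 and 12.13 in control CD4 cells, 9.20 and 10.47 with romidepsin at 30 nM and 9.70 and 10.64 with vorinostat at 10 µM. In CD8 cells it lay at 11.14 and 12.25, 10.02 and 11.81 and 9.26 and 10.72 in that order. The CD8 romidepsin arrays overlapped their controls and the other drug groups did not. Gimap6 fell by 2.19 ± 0.71 in CD4 cells with romidepsin (limma adjusted p = 0.0384). The other differences were -1.85 ± 0.71, -0.78 ± 0.71 and -1.71 ± 0.71 for CD4 vorinostat, CD8 romidepsin and CD8 vorinostat (limma adjusted p = 0.0878, 0.642 and 0.107; 5.55e-05, 0.0304 and 9.72e-05 with the block).

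Gimap7, a member that stimulates GTP hydrolysis by its own kind on pairing, lay at 11.73 and 12.18 in control CD4 cells, 8.94 and 10.59 with romidepsin at 30 nM and 9.55 and 10.84 with vorinostat at 10 µM. In CD8 cells it lay at 10.68 and 11.62, 9.82 and 11.68 and 8.90 and 10.57. The replicate 2 array of CD8 cells with romidepsin was as high as any CD8 control, while both CD8 vorinostat arrays lay under both controls. Gimap7 fell by 2.19 ± 0.73 in CD4 cells with romidepsin (limma adjusted p = 0.0431). The differences were -1.76 ± 0.73, -0.40 ± 0.73 and -1.42 ± 0.73 for CD4 vorinostat, CD8 romidepsin and CD8 vorinostat (limma adjusted p = 0.114, 0.892 and 0.204; 0.000576, 0.361 and 0.00273 with the block).

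At the highest doses Gimap9 was the member that moved least. It lay at 10.63 and 11.03 in control CD4 cells, 9.31 and 10.05 with romidepsin at 30 nM and 9.49 and 10.61 with vorinostat at 10 µM, and at 9.96 and 10.34, 9.88 and 10.41 and 9.75 and 10.39 in the matching CD8 groups. The CD4 drug arrays lay under their controls, whereas the CD8 drug arrays spanned theirs. Gimap9 fell by 1.15 ± 0.39 in CD4 cells with romidepsin, or 2.21-fold (limma adjusted p = 0.0446). The CD4 vorinostat difference was -0.78 ± 0.39 (limma adjusted p = 0.191, and 0.000481 with the block). In CD8 cells the 95% intervals of the difference were -0.82 to 0.82 with romidepsin and -0.90 to 0.74 with vorinostat, or -0.33 to 0.33 and -0.41 to 0.25 with the block.

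Counted over the family, 6 of 8 members were called lower in CD4 cells with romidepsin at 30 nM, all but Gimap1 and Gimap5. Of the 9871 tested genes 7.91% were called lower there. All 8 members had lower means and an unadjusted limma p under 0.05. The median of the 8 differences was -2.19 against 0.066 over all genes tested. With vorinostat at 10 µM in CD4 cells 3 of 8 were called lower, Gimap3, Gimap4 and Gimap8 (7.10% of all genes). The median was -1.84 against 0.022 over all genes. All 8 means were lower, 7 of them with an unadjusted limma p under 0.05. In CD8 cells 4 of 8 were called lower with vorinostat at 10 µM, Gimap1, Gimap3, Gimap4 and Gimap8 (8.50% of all genes). The median was -1.79 against 0, with 5 members at an unadjusted limma p under 0.05. None of 8 was called with romidepsin at 30 nM (2.93% of all genes). The median there was -0.91 against 0.018, with 2 members at an unadjusted limma p under 0.05. With the replicate block the counts were 8, 8, 7 and 5 of 8 in that order, where 28.3%, 29.3%, 32.4% and 24.6% of all genes were called lower. The background thus rose with the members' counts. The family was chosen with earlier results of these data known, so its counts are a description and no test of it against all genes. The drugs were given at unlike doses, so their values stand side by side and were not compared.

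Single arrays carried part of these counts. Without CD4 control replicate 1 or 2, the romidepsin 30 nM count in CD4 cells was 3 in either case (4.03% and 4.63% of all genes lower). Without drug replicate 1 it was 1 (3.15%), and without drug replicate 2 it was 7 (7.0%). For vorinostat at 10 µM in CD4 cells it was 2 without either control (3.46% and 4.17%), 1 without drug replicate 1 (2.73%) and 5 without drug replicate 2 (5.99%). In CD8 cells the vorinostat count was 2 without control replicate 1, 1 without control replicate 2 (4.37% and 4.65%), 1 without drug replicate 1 (2.97%) and 4 without drug replicate 2 (8.18%). The CD8 romidepsin 30 nM count went from 0 to 2 without drug replicate 2 (3.5%). Within replicate sets the median change of the 8 members was -2.76 in replicate 1 and -1.62 in replicate 2 for CD4 romidepsin at 30 nM, -2.20 and -1.49 for CD4 vorinostat at 10 µM, -1.38 and -0.47 for CD8 romidepsin at 30 nM, and -2.03 and -1.54 for CD8 vorinostat at 10 µM. Both sets went the same way, with the smaller change in replicate 2 each time.

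**Figure D2:**
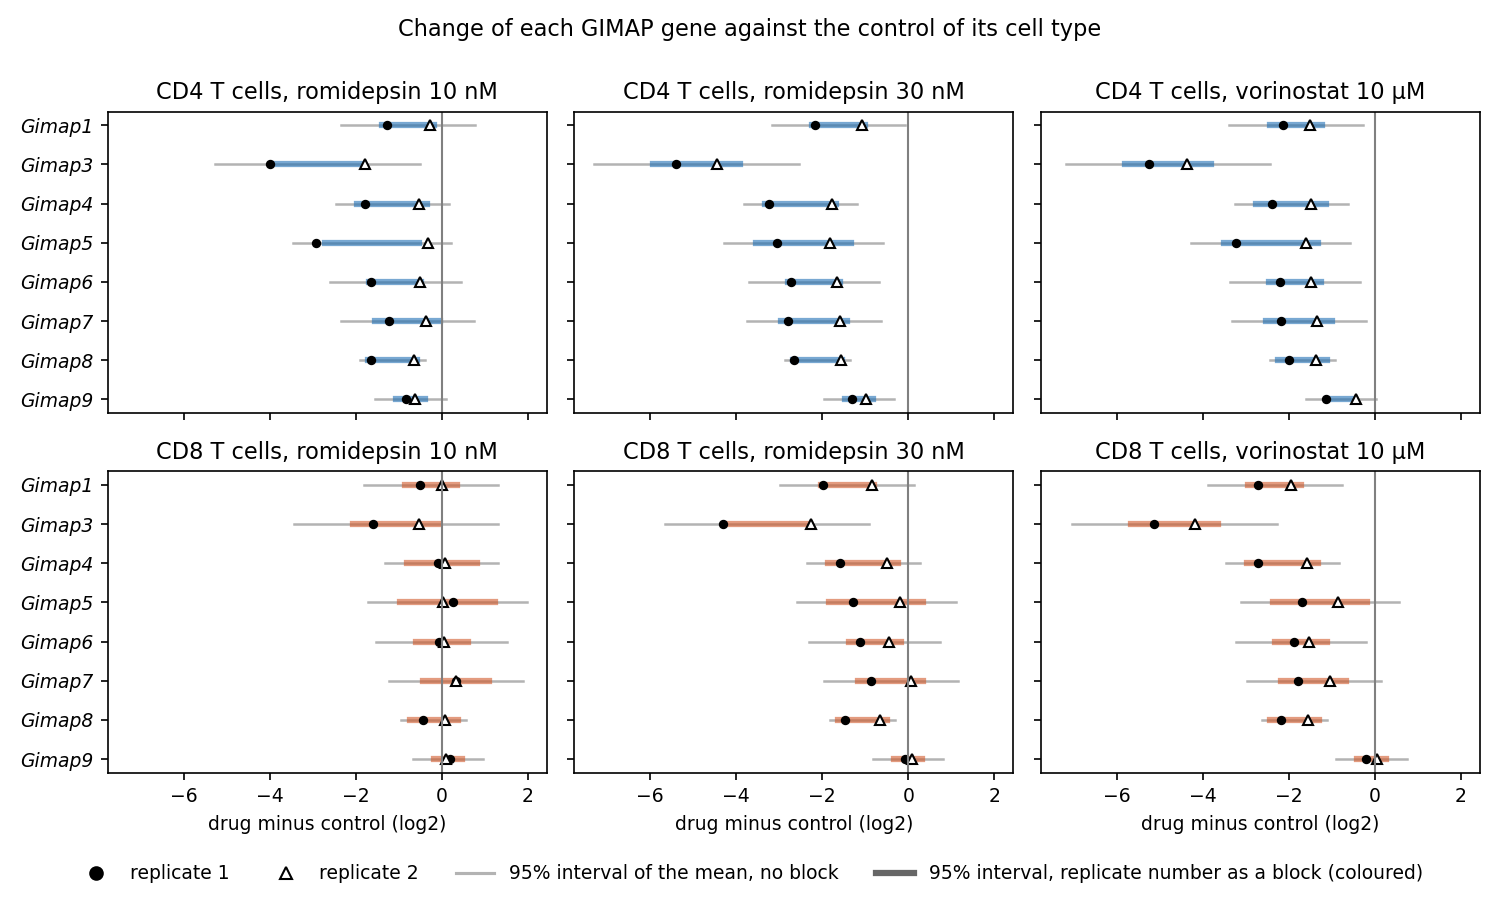
Change of each GIMAP gene against the control of its cell type (log2, drug minus control) at 3 doses per cell type. Circles and triangles are the changes within replicates 1 and 2, grey lines the 95% interval of the mean difference without the block and coloured bars that with it; with romidepsin at 10 nM the members have a median of -1.11 in CD4 cells and -0.01 in CD8 cells.

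With romidepsin at 10 nM all 8 means were lower in CD4 cells, by 0.72 (Gimap9) to 2.89 (Gimap3), and the median was -1.11. Without the block none was called (2.32% of all genes lower), although Gimap3 and Gimap8 had an unadjusted p under 0.05, and 7 of 8 were called with the block, all but Gimap7 (22.0%). The replicate 1 array moved more: the median change was -1.65 in replicate 1 and -0.52 in replicate 2, and Gimap5 lay at 4.50 and 7.39. The calls without the block at this dose also depended on which array was left out. In CD8 cells the same dose left the members at a median of -0.01, from -1.06 (Gimap3) to 0.33 (Gimap7), with none called in either fit (0.0101% and 8.13% of all genes lower).

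With vorinostat at 2 µM the medians were -0.28 in CD4 and -0.08 in CD8 cells, and no member was called without the block (0.334% and 0.750% of all genes lower), nor in CD4 cells with it (15.9%). In CD8 cells the block called Gimap1, -0.80 (limma adjusted p = 0.0386), and Gimap3, -1.29 (adjusted p = 0.0425), as lower (20.5% of all genes) and Gimap9, 0.61 (adjusted p = 0.00678), as higher (16.4% of all genes). Gimap9 lay at 9.96 and 10.34 in the CD8 control and at 10.67 and 10.84 there, the 1 case in which a member lay wholly over its control.

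At the lowest doses no member was called in either fit or had an unadjusted p under 0.05 without the block. Of all genes, 0.0304% were called in either direction in CD4 cells with romidepsin at 2 nM and 0.0101% with vorinostat at 0.5 µM, or 0.922% and 0.253% with the block. In CD8 cells the shares were 0.00% and 0.00%, or 0.00% and 1.13% with the block. The member differences were between -0.30 and 0.17, and Gimap3 had the lowest value in each of these 4 comparisons. The 95% intervals of its differences were -1.30 to 0.70 and -1.26 to 0.75 in CD4 cells with the block.

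The last dose step was tested on its own. From 2 to 10 µM vorinostat, Gimap8 fell by 1.47 in CD4 cells (limma adjusted p = 0.0244) and by 1.79 in CD8 cells (adjusted p = 0.00945), as the single member called in each (1.76% and 1.81% of all genes lower). It was not called in CD4 cells when any 1 of the 4 arrays was left out. Nor was it called in CD8 cells without the replicate 1 array at 10 µM or either array at 2 µM. Without the replicate 2 array at 10 µM members were still called in CD8 cells. Gimap3 had the largest step, -3.65 ± 1.12 in CD4 and -3.36 ± 1.12 in CD8 cells (limma adjusted p = 0.0709 and 0.105). With the block 8 members were called lower in CD4 and 7 in CD8 cells, all but Gimap5 (17.8% and 18.6% of all genes). From 10 to 30 nM romidepsin no member was called without the block, 2 in CD4 and 1 in CD8 cells having an unadjusted p under 0.05 (0.0101% and 0.00% of all genes in CD4 and CD8 cells). With it 5 were called lower in CD4 cells, Gimap3, Gimap4, Gimap6, Gimap7 and Gimap8 (4.27% of all genes), and 3 in CD8 cells, Gimap1, Gimap3 and Gimap8 (8.0%). In CD8 cells Gimap3 thus went from a mean of 8.12 at 10 nM to 5.90 at 30 nM.

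Among the controls, CD8 minus CD4 differences ran from -0.85 (Gimap3) to 0.15 (Gimap1). No member was called without the block (6.22% of all genes in either direction), and Gimap9 alone was called with it, -0.68 for CD8 minus CD4 (limma adjusted p = 0.00286; 37.5% of all genes). Gimap7 was -0.80 (limma adjusted p = 0.0897 with the block). The block intervals of Gimap1 and Gimap4 were -0.45 to 0.76 and -0.80 to 0.83.

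The response to romidepsin was weaker in CD8 than in CD4 cells for 3 members when the difference of responses was tested with the block. At 30 nM the CD8 response minus the CD4 response was above 0 for all 8, from 0.21 (Gimap1) to 1.78 (Gimap7). It passed with the block for Gimap6, 1.41 (limma adjusted p = 0.026), Gimap7 (adjusted p = 0.0249) and Gimap9, 1.14 (adjusted p = 0.00345), where 17.6% of all genes differed; without the block none passed (1.00%). At 10 nM Gimap9 passed with the block, 0.86 (limma adjusted p = 0.028; 8.40% of all genes), and none without it (0.0709%). At 30 nM the Gimap9 arrays behind the difference, control first, were 10.63 and 11.03 against 9.31 and 10.05 in CD4 cells, and 9.96 and 10.34 against 9.88 and 10.41 in CD8 cells. At 10 nM they were 9.79 and 10.42 in CD4 and 10.15 and 10.42 in CD8 cells. For vorinostat no member passed in either fit, at 2 µM (0.0101% and, with the block, 1.45% of all genes) or at 10 µM (0.577% and 10.7%). At 10 µM the block intervals were -1.27 to 1.57 for Gimap3 and -0.98 to 0.61 for Gimap8. For a difference of responses the 95% interval extended 1.38 log2 units either way without the block and 0.50 with it, again in the median.

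In the order of the 14 group means, controls and lowest doses stood at the top and the 4 highest-dose groups at the bottom for Gimap1, Gimap3 and Gimap8; these 4 groups were also the lowest for Gimap6 and Gimap7. For Gimap3 the order from high to low began with the CD4 control (10.03), CD4 vorinostat 0.5 µM (9.77), CD4 romidepsin 2 nM (9.73) and CD8 control (9.18), and ended with CD8 romidepsin 30 nM (5.90), CD4 vorinostat 10 µM (5.23), CD4 romidepsin 30 nM (5.11) and CD8 vorinostat 10 µM (4.53). None of its 13 pairs of neighbours in that order was free of overlap between arrays. Among the other members, 1 pair was free of overlap for each of Gimap5 (CD4 vorinostat 0.5 µM over 2 µM), Gimap8 (CD8 over CD4 romidepsin 10 nM) and Gimap9 (CD4 romidepsin 2 nM over CD8 romidepsin 10 nM), and none for the rest. The lowest group was CD8 vorinostat 10 µM for Gimap1, Gimap3 and Gimap7 (8.02, 4.53 and 9.73) and CD4 romidepsin 30 nM for Gimap4, Gimap5, Gimap6, Gimap8 and Gimap9 (11.12, 5.14, 9.83, 9.21 and 9.68). For Gimap9 the highest was CD4 vorinostat 2 µM (10.88).

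As a description over the 14 group means, which share arrays, processing and the dose series, each member's correlation with the mean of the other members was 0.99 for Gimap6 and Gimap8, 0.97 for Gimap3 and Gimap5, 0.96 for Gimap4, 0.94 for Gimap7, 0.92 for Gimap1 and 0.76 for Gimap9. Among pairs, Gimap6 and Gimap8 were closest (r = 0.99) and Gimap1 and Gimap9 farthest (r = 0.52). Of the genes outside the family, the 8 with the pattern most like the family mean were Casp8 (r = 0.992), Msi2 (0.992), Grap (0.988), Ripor2 (0.988), Gramd1a (0.987), Ablim1 (0.987), Vasp (0.986) and Plekha2 (0.986). Casp8 encodes the protease that starts the death receptor pathway, Vasp and Ablim1 encode actin-binding proteins, Grap an adaptor of antigen receptor signalling and Msi2 an RNA-binding protein. In CD4 cells with romidepsin at 30 nM Casp8 differed by -2.32 (limma adjusted p = 0.101), Ripor2 by -2.67 (adjusted p = 0.00698) and Msi2 by -1.37 (adjusted p = 0.00041).

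The 5 nearest named genes with a probe set on the proximal side, Lrrc61, Rarres2, Repin1, Zfp775 and AI854703, were tested, and the 5 on the distal side, Tmem176b, Tmem176a, Aoc1, Doxl1 and Gpnmb, stayed under the detection level, at most 3.99. Zfp775, a zinc finger gene that ends at -25.638 kb from the start of Gimap8, rose by 1.45 in CD4 cells with romidepsin at 30 nM (limma adjusted p = 0.00299), by 1.43 with vorinostat at 10 µM (adjusted p = 0.00379) and by 0.91 in CD8 cells with vorinostat at 10 µM (adjusted p = 0.0467). AI854703, the gene next to Gimap8, differed by 0.04 and -0.01 in CD4 cells with romidepsin at 30 nM and vorinostat at 10 µM (limma adjusted p = 0.983 and 1). AI854703 reached at most 4.69 on any array, close to the detection level, so a fall of this gene could hardly show. Rarres2 reached at most 5.43. With the replicate block Rarres2 was called lower in CD4 cells, at -0.29 with romidepsin and -0.27 with vorinostat at these doses (limma adjusted p = 0.00968 and 0.0153). Repin1 was called higher in that fit with romidepsin at 30 nM, at 0.51 in CD4 and 0.55 in CD8 cells. Zfp775 was called higher in all 4 highest-dose comparisons of that fit. Within the cluster Gimap9 lies between Gimap8 and Gimap4, whose differences were larger in all 4 highest-dose comparisons.

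**Figure D3:**
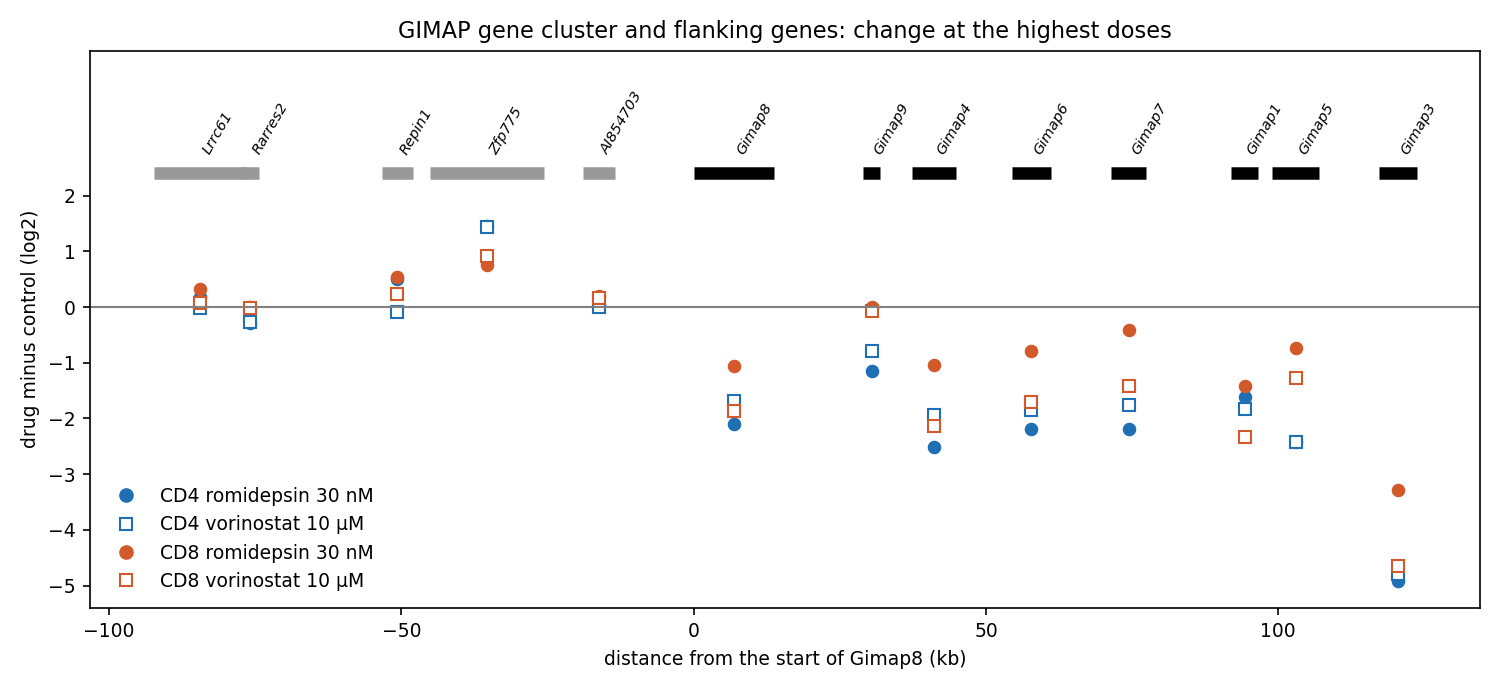
Position of the GIMAP genes (black bars) and the 5 flanking genes before them (grey bars), in kb from the start of Gimap8, and the change of each at the highest doses (log2, drug minus control; points are differences of 2-array means). Flanking genes on the far side were not detected and are not drawn; the members lie at or below 0, down to -4.92 for Gimap3, and Zfp775 lies at 1.45 in CD4 cells with romidepsin.

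A further probe set existed for 3 members, with mixed results. For Gimap4 it gave -2.71 in CD4 cells with romidepsin at 30 nM (limma adjusted p = 0.00646) and -2.34 in CD8 cells with vorinostat at 10 µM (adjusted p = 0.0162), close to the brightest set. For Gimap6 these were -2.46 and -1.45 (limma adjusted p = 0.136 and 0.427). For Gimap7 the dimmer set, with a mean of 6.28 over the 28 arrays, gave -1.19 and 0.15 (limma adjusted p = 0.658 and 0.978), against -2.19 and -1.42 from the brightest. The Gimap7 sets thus disagreed in sign in CD8 cells.

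The 3′ minus 5′ difference of the beta-actin control probe sets, which grows as RNA breaks down, moved with dose. It was 0.78 to 0.94 log2 units in the CD4 controls and 0.79 to 0.86 in the CD8 controls. At the highest doses it was 0.97 to 1.62 in CD4 and 0.90 to 1.43 in CD8 cells, with replicate 1 the higher in each group. The same difference for Gapdh was 0.05 to 0.34 over all 28 arrays. With the block and the actin difference as a covariate, the members in CD4 cells with romidepsin at 30 nM differed by -3.34 (Gimap3) to -0.53 (Gimap1), and 6 of 8 were called, where 18.1% of all genes were called lower. For vorinostat at 10 µM in CD4 cells the range was -2.83 (Gimap3) to -0.05 (Gimap7), and Gimap3 alone was called (13.1% of all genes). In CD8 cells at the highest doses Gimap1, Gimap3 and Gimap8 were called with either drug (22.2% of all genes with romidepsin, 21.0% with vorinostat), with Gimap3 at -2.32 and -2.75. Gimap5 was 0.76 with vorinostat. The Gimap7 difference there, -1.42 without the covariate, also turned above 0 and was not called. The actin difference and the dose rise together, so their parts in the changes of Gimap3 and of the other members cannot be told apart.

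Several genes listed as markers of cells other than T cells were present. Cd79b, Pecam1 and Klrd1 had lower means at the highest doses in both cell types. Cd68 stayed near its control in CD4 cells and had higher means in CD8 cells. Of 7 B cell markers 3 were tested. Cd79b lay between 2.27 and 9.86 in the CD4 arrays and between 3.15 and 8.81 in the CD8 arrays, Ms4a1 reached 8.16 and Cd22 reached 6.85, while Pax5 was at 2.27 or less. In CD4 cells with romidepsin at 30 nM Cd79b differed by -3.91, Ms4a1 by -1.78 and Cd22 by -1.57 (limma adjusted p = 0.25, 0.749 and 0.566; 3.48e-05, 0.0719 and 0.046 with the block). Cd79b was also called lower with the block in the other 3 highest-dose comparisons, at -3.85 in CD4 cells with vorinostat and at -2.54 and -3.39 in CD8 cells with romidepsin and vorinostat (limma adjusted p = 4.63e-05, 0.00192 and 0.000121). The mean level of the B cell markers was 3.03 to 5.97 in the CD4 controls, 2.47 to 3.45 with romidepsin at 30 nM and 2.41 to 3.66 with vorinostat at 10 µM. It was 3.04 to 4.58 in the CD8 controls, 2.50 to 3.23 with romidepsin at 30 nM and 2.43 to 3.43 with vorinostat at 10 µM. The part of B cells in the GIMAP changes was not tested. In bulk RNA, fewer cells of a type and less RNA per cell cannot be told apart.

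Of the endothelial markers, Cdh5, Kdr, Tek and Cldn5 lay at 2.41 or less in every array. Pecam1, which T cells can also carry, reached 6.55 and differed by -2.74 in CD4 cells with romidepsin at 30 nM and by -2.22 with vorinostat at 10 µM (limma adjusted p = 0.14 and 0.26; 0.000605 and 0.00313 with the block). In CD8 cells it differed by -1.38 and -2.54 with these drugs (limma adjusted p = 0.0503 and 0.00111 with the block). Klrd1, an NK receptor gene also made by activated CD8 T cells and the 1 of 5 NK markers tested, reached 13.30 in CD8 arrays. It fell by 6.79 in CD8 cells with vorinostat at 10 µM (limma adjusted p = 0.0142). With romidepsin at 30 nM it differed by -4.05 there (limma adjusted p = 0.198, and 0.00218 with the block). In CD4 cells Klrd1 differed by -0.30 with romidepsin and -1.59 with vorinostat at these doses and was called in neither fit. Cd68, the 1 of 7 myeloid markers tested, differed by 1.22 in CD8 cells with vorinostat (limma adjusted p = 0.0689, and 0.0256 with the block) and by 0.07 in CD4 cells with romidepsin (adjusted p = 0.974, and 0.908 with the block). The other Cd68 differences, 1.09 in CD8 cells with romidepsin and -0.17 in CD4 cells with vorinostat, were called in neither fit. Hba-a1 and Alas2, of erythroid cells, were not detected.

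T cell genes were checked against the labels and the drugs. Cd8a and Cd8b1 lay at 9.34 or more in all CD8 arrays, and Cd4 at 2.34 or less. In the CD4 arrays Cd4 ranged from 2.39 to 8.55, Cd8b1 from 5.32 to 8.28, and Cd40lg, a CD4 marker, stayed at 2.35 or less. Runx3, listed as a CD8 marker, did not follow the labels, at 7.68 to 10.29 in CD4 and 8.36 to 9.85 in CD8 arrays. Zbtb7b, of the CD4 list, lay at 4.53 to 6.87 in CD4 and at 3.88 to 5.22 in CD8 arrays. Of the pan T cell genes Cd3e, Cd3d, Cd3g and Cd2, 2 of 4 fell in CD4 cells with romidepsin at 30 nM (4 of 4 with the block), Cd3e by 1.40 (limma adjusted p = 0.000899) and Cd2 by 2.91 (adjusted p = 0.0397), and the median of the 4 was -1.45. Of all genes, 7.91% were called lower in that comparison, or 28.3% with the block. With vorinostat at 10 µM, 1 of 4 fell in each cell type, Cd3e, and none was called in CD8 cells with romidepsin at 30 nM, against all 4 in each of these comparisons with the block. There 7.10%, 8.50% and 2.93% of all genes were called lower (CD4 vorinostat, CD8 vorinostat, CD8 romidepsin), or 29.3%, 32.4% and 24.6% with the block. Cd4 itself fell by 4.84 in CD4 cells with romidepsin at 30 nM (adjusted p = 0.000102).

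The interferon-inducible IRG and GBP GTPases, which act on membranes of vacuoles that hold microbes, rose in 7 of 8 tested genes in each of the 4 highest-dose comparisons, with a median of 2.35 in CD4 cells with romidepsin. With the block 8 of 8 were called in CD4 cells and 7 of 8 in CD8 cells with either drug. Of all genes, 13.3% and 10.9% were called higher in CD4 cells with romidepsin and vorinostat, and 7.89% and 12.0% in CD8 cells. With the block these shares were 35.3%, 31.9%, 27.8% and 31.6%. In CD4 cells with romidepsin at 30 nM Iigp1 rose by 6.69 (limma adjusted p = 1.66e-06), Gbp6 by 3.33 (adjusted p = 1.76e-05) and Gbp2 by 3.00 (adjusted p = 0.000294). Of 8 septins, cytoskeletal relatives of the GIMAP fold, 1 rose and 2 fell in CD4 cells with either drug, or 1 and 4 with romidepsin and 1 and 5 with vorinostat under the block: Septin4 rose by 3.26 and Septin8 fell by 2.45 with romidepsin (limma adjusted p = 0.000867 and 3.59e-05). Septin4 also rose in CD8 cells, by 4.13 with romidepsin (limma adjusted p = 0.000285). In CD4 cells 7.91% of all genes were called lower with romidepsin and 7.10% with vorinostat, or 28.3% and 29.3% with the block.

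Genes of the processes GIMAP proteins are tied to were mixed. In CD4 cells with romidepsin at 30 nM 13.3% of all genes were called higher and 7.91% lower, or 35.3% and 28.3% with the block. In CD8 cells at that dose the shares were 7.89% and 2.93%, or 27.8% and 24.6% with the block. Of 11 tested BCL2 family genes, 2 rose and 2 fell in CD4 cells with romidepsin at 30 nM, or 4 and 6 with the block. The pro-death Bmf rose by 2.80 and Bcl2l11 by 1.86 (limma adjusted p = 7.03e-05 and 0.0355), and the pro-survival Bcl2 fell by 2.01 and Bcl2l1 by 1.91 (adjusted p = 0.00112 and 0.00041). In CD8 cells with romidepsin at 30 nM Bmf was the single one called, at 2.60 (adjusted p = 0.000292), and with the block 3 were called higher and 3 lower. Of 12 autophagy genes, 4 rose and none was called lower in CD4 cells with romidepsin at 30 nM, or 7 and none with the block, among them Map1lc3a by 2.20 and Gabarapl2, the partner of Gimap6, by 1.37 (limma adjusted p = 0.000374 and 0.0431). The median of the list was 0.34, and 2, 2 and 3 genes rose with CD4 vorinostat, CD8 romidepsin and CD8 vorinostat at the highest doses, or 7, 8 and 10 with the block, where 1 also fell in the last. Of all genes, 10.9%, 7.89% and 12.0% were called higher there, or 31.9%, 27.8% and 31.6% with the block, and 32.4% lower in the last.

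Genes of resting T cells, where GIMAP genes are known to be high, gave calls in both directions. Of 14 tested, 1 rose and 3 fell in CD4 cells with romidepsin at 30 nM, or 4 and 5 with the block, with a median of -0.29. Of all genes 13.3% were called higher and 7.91% lower, or 35.3% and 28.3% with the block. With the block the list's calls were thus near those of all genes in this comparison. Il7r, the receptor for the survival cytokine interleukin 7, fell by 4.82 (limma adjusted p = 0.0206), Slfn2, a quiescence factor, by 3.68 (adjusted p = 1.94e-05) and Satb1 by 1.72 (adjusted p = 0.0374). Klf2 and Ccr7 were not called, at 1.31 and 0.25 (limma adjusted p = 0.546 and 0.729). With vorinostat at 10 µM in CD4 cells 1 of the list rose and 2 fell. In CD8 cells 1 fell with romidepsin at 30 nM, and 1 rose and 4 fell with vorinostat at 10 µM. With the block these counts were 4 and 5, 4 and 7, and 5 and 7. Of all genes 10.9%, 7.89% and 12.0% were called higher there and 7.10%, 2.93% and 8.50% lower. With the block the shares were 31.9%, 27.8% and 31.6% higher and 29.3%, 24.6% and 32.4% lower. Of 12 activation genes, 5 fell and 1 rose in CD4 cells with either drug at the highest dose, and with the block 8 and 1 with romidepsin and 7 and 1 with vorinostat. For vorinostat the shares of all genes were 7.10% lower and 10.9% higher, or 29.3% and 31.9% with the block. In CD4 cells with romidepsin Il2rb fell by 3.01 and Tnfrsf9 by 2.72, while Cd69 rose by 2.14 (limma adjusted p = 2.34e-05, 0.000238 and 0.0207). In CD8 cells 1 activation gene rose and none fell with romidepsin at 30 nM. There 1 rose and 5 fell with vorinostat at 10 µM. With the block 4 rose and 5 fell with romidepsin, and 3 rose and 7 fell with vorinostat.

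**Figure D4:**
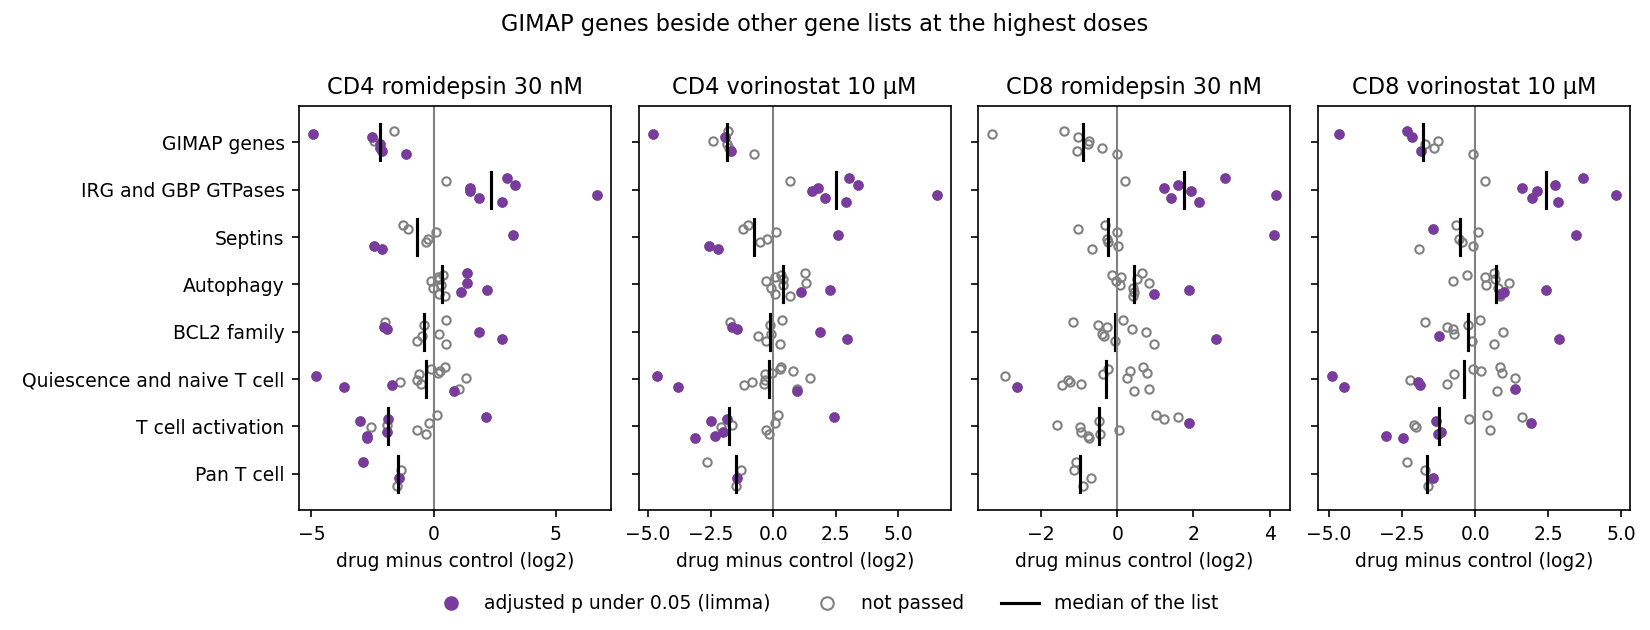
Change of the GIMAP genes and of 7 other gene lists at the highest doses (log2, drug minus control; 1 point a gene, filled purple where the limma adjusted p is under 0.05, black lines list medians). The GIMAP points lie at or left of 0 in all 4 panels and 7 of 8 IRG and GBP points are filled to the right of it, with medians of -2.19 and 2.35 in CD4 cells with romidepsin at 30 nM.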

How the data were processed

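Affymetrix Mouse430_2 arrays were read from the deposited table of 45101 probe sets and 28 arrays. The values are GCRMA values per the submitters' processing notes, with no version or settings given; the log2 unit was read from their range, since the authors' base of the logarithm is not given in the sources used here. Whether the replicate sets were normalized by the authors together is not stated. Their floors differed: the minimum of an array was always 2.268 in set 1 and always 2.255 in set 2. The reason for this difference was not tested.

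Probe sets were tied to genes by the platform annotation and the RefSeq table: 34958 name 1 gene, 932 several and 9211 none. The brightest single-gene probe set by mean stood for each of 18194 genes, and the 9871 over 4.27 (the mode of 2.27 plus 2 log2 units) in at least 2 arrays were tested. Limma 3.58.1 (R 4.3.3) was fitted with 14 group means (14 residual degrees of freedom) and Benjamini-Hochberg adjustment within each contrast at 0.05, and checked on simulated data. The members and gene lists were chosen with earlier results of these data known. All 8 members and the 10 flanking genes were named, with up to 3 called genes of a list per contrast, lists of 6 or fewer whole, and the 8 genes most like the family mean; Bcl2l11, Cd69, Klf2, Ccr7 and the B cell and myeloid markers fall outside this rule and were added after their values were seen.

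The replicate number within cell type was a block in an alternative fit (12 residual degrees of freedom; 11 with the beta-actin 3′ minus 5′ difference). Deviations of same-numbered arrays from their group means correlated at 0.76 to 0.94 in CD4 and 0.77 to 0.96 in CD8 cells (21 pairs each), so the numbers pair the arrays; this comes from the data and not from the labels. Other alternatives were quantile normalization, no detection filter, 1 cell type in the fit, the next-brightest probe set and leaving out each array. Promoter sequences are those of RefSeq, GRCm38.p6. Protein sequences were not used here.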

Additional observations from a re-analysis of the deposited data

Results flagged for a closer look

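The responses to romidepsin differed between CD8 and CD4 cells for 3 members by a test of the difference itself (limma, the replicate number as a block, adjusted over 9871 genes). At 30 nM the CD8 response minus the CD4 response was 1.41 for Gimap6, 1.78 for Gimap7 and 1.14 for Gimap9. At 10 nM it was 0.86 for Gimap9. The adjusted p-values were 0.026, 0.0249, 0.00345 and 0.028; without the block they were 1, 0.857, 0.643 and 1, so that these 4 differences rest on the pairing of the arrays. No group held enough arrays for a test of single outlying arrays.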

How the results depend on the processing

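With 2 arrays a group, the fit decided many calls. The counts of members called moved as follows, with the share of all tested genes called in the same direction in brackets. No share stands beside the ranges found when 1 array was left out. For CD4 romidepsin at 10 nM the 0 calls became 3 (5.64%) with quantile normalization, 7 (22.0%) with the replicate block, 4 (18.2%) with the block and the actin covariate, and 0 to 2 when 1 array was left out. At 30 nM the 6 calls became 8 (28.3%) with the block, 8 (12.8%) with quantile normalization, 3 (3.79%) without the detection filter and 1 to 7 when 1 array was left out. For CD4 vorinostat at 10 µM the 3 calls became 8 (11.8%) with quantile normalization, 8 (29.3%) with the block, 1 (13.1%) with the block and actin, and 1 to 5. For CD8 romidepsin at 10 nM the block and actin gave 1, higher (11.4%). At 30 nM the 0 calls became 2 (7.04%) with quantile normalization, 5 (24.6%) with the block, 3 (22.2%) with the block and actin, and 0 to 2. For CD8 vorinostat at 2 µM they became 3 with the block, 2 lower (20.5%) and 1 higher (16.4%), and 5 higher (15.9%) with the block and actin. At 10 µM the 4 calls became 7 (32.4%) with the block and 1 to 4. For control CD8 against CD4 cells the block gave 1 lower (16.3%) and the block with actin 4 (19.1%).

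For the differences of responses, with all calls above 0, the block gave 1 (3.58%) and the block with actin 2 (4.86%) at romidepsin 10 nM, 3 (8.44%) and 5 (9.11%) at 30 nM, and the block with actin 1 (8.01%) for vorinostat at 10 µM. For the last dose step, the block gave 5 (4.27%) and the block with actin 4 (2.29%) for CD4 romidepsin, and 3 (8.0%) and 3 (6.02%) for CD8 romidepsin. For CD4 vorinostat the 1 call became 0 (0.557%) with 1 cell type in the fit, 4 (4.54%) with quantile normalization, 8 (17.8%) with the block, 3 (6.66%) with the block and actin, and 0 to 0 when 1 array was left out. For CD8 vorinostat the 1 call became 0 (0.547%), 3 (4.33%), 7 (18.6%) and 7 (12.9%) under the same settings, and 0 to 2. In CD8 cells with vorinostat at 2 µM the block with actin turned 3 uncalled negative values into calls above 0: Gimap4 at 0.81, Gimap6 at 0.60 and Gimap8 at 0.51. The cause was not tested.

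Of 168 member values, the block added 51 calls and lost 0, quantile normalization added 18 and lost 0, and dropping the detection filter lost 5. The block with actin added 37, lost 3 and turned the sign of 34, the largest of size 1.42 and uncalled. Leaving out 1 array lost 30 and gained 8 calls among 800 values and turned 126 signs, none of them called in either setting. The next-brightest probe set lost 2 calls among 63 values and turned 12 signs, and 1 cell type in the fit lost 5 and gained 1 among 128.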
